A study of Mus musculus with 4 samples.

Results

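The 9 genes described here are the Eph receptors and ephrins that were chosen by name for their place in intestinal crypts, namely the B-type receptors *Ephb2*, *Ephb3*, *Ephb4* and *Ephb6*, the A-type receptors *Epha1* and *Epha2*, the transmembrane ligands *Efnb1* and *Efnb2* and the membrane-anchored ligand *Efna1*. They were found on the arrays by gene name, through 12 probes out of 41174 that stand for 27089 gene names. All 9 had a probe above background in both experiments. Eph receptors are tyrosine kinases that bind ephrins on the neighbouring cell, so that the receptor cell signals forward and the ephrin cell signals in reverse. In the intestinal epithelium, EphB2 and EphB3 lie at the crypt base, where Wnt signaling is high, and ephrin-B1 and ephrin-B2 lie on the differentiated cells above. Repulsion between both sets of cells is known to keep each cell type at its place along the crypt axis, and *Ephb2* and *Ephb3* are known targets of the Wnt pathway.

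Expression was measured on 4 dual-color arrays from male C57BL/6 mice of 6 to 8 weeks. On 2 of them, colon RNA of *Myh11CreErt2/Rspo3* fl/fl mice (*Rspo3* KO) was set against that of *Myh11CreErt2/Rspo3*+/+ littermates (control) 2 weeks after tamoxifen (4 mg per 25 g body weight), which all mice received. One mouse was used per channel, and the second pair carries the dyes the other way round, which gives 2 biological replicates. Dye and pair cannot be told apart. Rspo3 is a secreted protein that strengthens Wnt signaling, and the Cre recombinase acts only in cells with *Myh11* promoter activity, smooth muscle cells and myofibroblasts, so other cells keep the gene. On the other arrays, live epithelial cells (positive for the surface protein ESA) of *Axin2CreErt2/Rosa26-tdTomato* mice were sorted 24 h after tamoxifen into tdTomato-positive (Axin2+) and tdTomato-negative (Axin2-) cells, pooled from 3 mice. Both of these arrays hold the same RNA pools with the dyes swapped, so they are 1 replicate and allow no test. Axin2 is itself a Wnt target, and a cell that was made after tamoxifen by an Axin2+ cell carries the label too. The labels name distal colon for the KO experiment. Of 10 stromal markers, 10 were measured on those arrays and 4 in the sorted cells, *Col1a2*, *Dcn*, *Acta2* and *Tagln*, which were above background in 4 of 4 channels there. The markers *Myh11*, *Des*, *Col1a1*, *Pdgfra* and *Lum* were above background in all 4 colon channels and in no channel of the sorted cells. The summed level was 126408 to 161511 over the 10 markers in colon and 9151 to 13098 over the 4 in sorted cells. These sums cover different genes on different slides, so they cannot be compared as stromal content. The part of stromal RNA in the results was not tested.

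Of the gene probe spots, between 53.1% and 60.3% per channel were well above background. The log2 ratios of both KO arrays were nearly unrelated over 15293 genes (r = 0.03), with 44.1% of genes in the same direction, while both arrays of the sorted cells gave r = 0.92 over 15777 genes. The arrays do not show the loss of *Rspo3*. One probe was above background only on the second array, where KO over control gave 0.17 on the log2 scale. The other was above it on neither, and whether these probes lie in the deleted part is not given in the sources used here.

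Each value comes from a probe of 60 bases. The first 30 bases are shown for the probes behind the results on *Ephb3*, *Epha2* and *Efnb2*. For *Ephb2* the whole probe in the kinase region is shown, which reads across an intron. The letters run 5′ to 3′ as the array files give them, and no part is marked.
Ephb3 probe, chr16:21223025-21223084 (mm9, plus strand): ggagatatggtgccccatcctgaagccagc
Epha2 probe, chr4:140885139-140885198 (mm9, plus strand): agcccctttggacaaatgtcgctgtcagtg
Efnb2 brighter probe, chr8:8618177-8618236 (mm9, minus strand): gtcatcggttggctacgttttggttctatg
Efnb2 second probe, chr8:8619222-8619281 (mm9, minus strand): ttagagtccttgagatggaagtaagttatg
Ephb2 second probe, chr4:136213476-136214873 (mm9, minus strand): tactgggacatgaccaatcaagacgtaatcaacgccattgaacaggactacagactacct

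Transcription factors of the Tcf/Lef family carry the Wnt signal to DNA. The 250 bases before the gene start (RefSeq, GRCm38.p6) were therefore searched on both strands for 4 words, CTTTGAA and CTTTGAT as well as CTTTGTA and CTTTGTT, and the windows of the 3 members that passed 1.5-fold in either experiment are shown. Of the 9 members, 1 held such a word, *Epha2*, with CTTTGAA in capitals starting 209 bases before the gene start. Among 27025 genes with such a window 16.8% held one, and among 32851 windows of the same length 14.8% did. A match is only a match of letters, and the windows of *Ephb3* and *Efnb2* hold none.
Ephb3, chr16:21204545-21204794, plus strand: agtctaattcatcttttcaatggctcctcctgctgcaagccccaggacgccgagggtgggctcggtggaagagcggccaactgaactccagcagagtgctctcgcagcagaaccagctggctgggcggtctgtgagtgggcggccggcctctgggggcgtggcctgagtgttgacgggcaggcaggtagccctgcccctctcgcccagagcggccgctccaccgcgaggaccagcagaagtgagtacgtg
Epha2, chr4:141300971-141301220, plus strand: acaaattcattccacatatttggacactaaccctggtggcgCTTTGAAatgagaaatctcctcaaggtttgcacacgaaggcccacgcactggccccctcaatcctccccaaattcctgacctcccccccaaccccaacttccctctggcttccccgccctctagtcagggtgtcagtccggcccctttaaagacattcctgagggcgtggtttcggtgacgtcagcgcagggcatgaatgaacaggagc
Efnb2, chr8:8661243-8661492, minus strand: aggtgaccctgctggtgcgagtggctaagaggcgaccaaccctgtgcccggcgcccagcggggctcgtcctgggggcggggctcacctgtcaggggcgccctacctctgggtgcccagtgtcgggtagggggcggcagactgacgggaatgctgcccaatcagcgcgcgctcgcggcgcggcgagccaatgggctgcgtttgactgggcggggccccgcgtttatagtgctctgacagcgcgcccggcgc

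The first question was which of these genes depend on Rspo3 from the stroma. By limma, with Benjamini-Hochberg adjustment over all 15293 genes, 0 of the 9 members were called in *Rspo3* KO over control, with 2 at an unadjusted p under 0.05, *Ephb3* and *Epha2*, where 0.222% of all genes were called and 700 reached that unadjusted p. Requiring a mean past 1.5-fold and 1 sign in both pairs of mice, 1 member was lower in the KO, *Ephb3*, beside 2.46% of all genes. In the other direction 1 member passed, *Epha2*, beside 1.84% of all genes. On both arrays 2 members were lower and 3 were higher, beside 23.8% and 20.3% of all genes, and 4 members went opposite ways. The median of the members' mean log2 ratios was 0.16, beside -0.01 for all genes.

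The second question was how the genes differ between Axin2+ and Axin2- epithelial cells. Here 5 members were lower and 4 higher in Axin2+ cells on both arrays, beside 41.8% and 40.9% of all genes. None went opposite ways, where 82.7% of all genes kept 1 direction on both arrays. The median log2 ratio was -0.29 beside -0.01 for all genes. Past 1.5-fold, 1 member was higher in Axin2+ cells, *Ephb3*, beside 7.84% of all genes, and 1 was lower, *Efnb2*, beside 6.97% of all genes. These counts describe 1 pair of RNA pools.

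**Figure D1:**
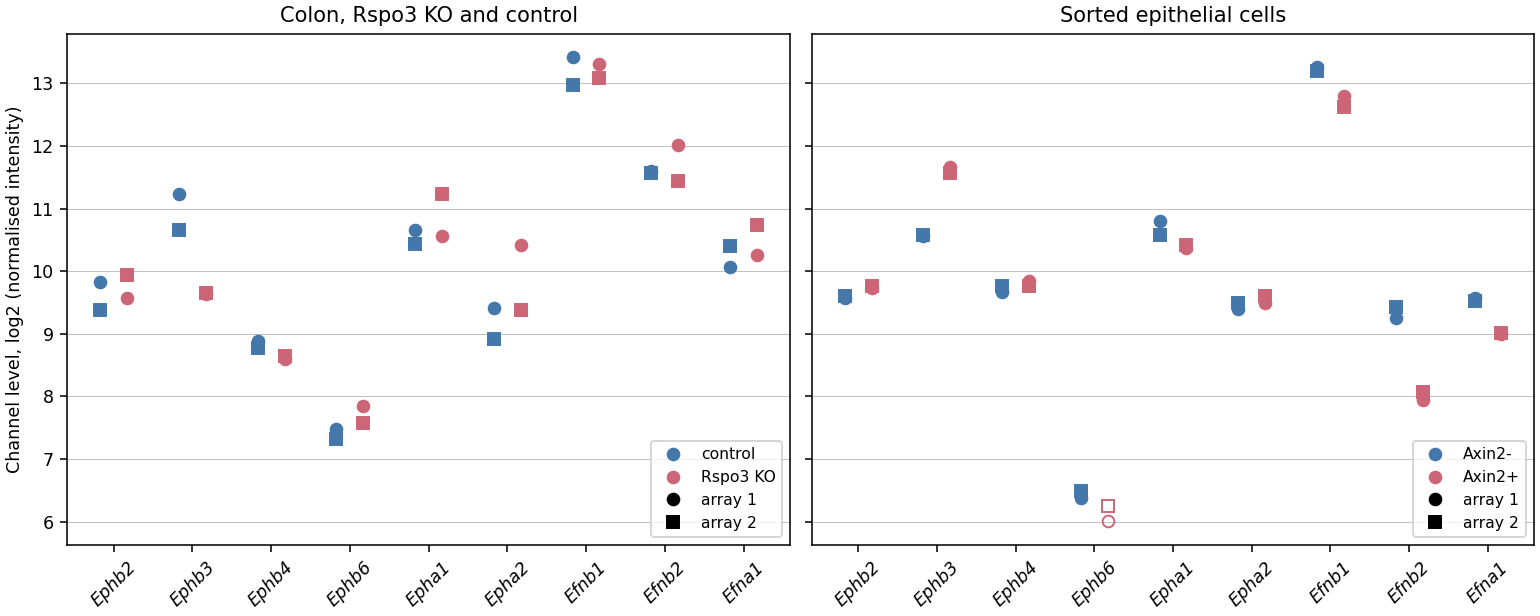
Level of each member in every RNA, as log2 of the normalised intensity of its channel on the vertical axis, for the brightest probe of each gene. Circles are array 1, squares are array 2, and open symbols were not well above background. *Rspo3* KO colon lies below control for *Ephb3* in both pairs. Axin2+ cells lie above Axin2- cells for *Ephb3* and below them for *Efnb2*. Different probes cannot be compared in level.

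Among the B-type receptors, *Ephb3* was the one past 1.5-fold in either experiment. *Ephb3* encodes a receptor of the crypt base. Its log2 level in control colon was 11.24 on the first array and 10.66 on the second, and in *Rspo3* KO colon 9.63 and 9.65. Both KO mice thus lay below both controls, and the controls differed from each other more than the KO mice did. The share of all genes whose groups separate in this way was not counted. The log2 ratio of KO over control was -1.61 and -1.01, with a mean of -1.31 ± 0.42 (SD, n = 2), or 2.47-fold lower. The limma interval of the mean (95%) was -1.89 to -0.72, with an unadjusted p of 0.000956 that ranked 83rd of 15293 genes, and the adjusted limma p was 0.176. The adjusted limma p was 0.0358 with a background offset of 16 in place of 50. It was between 0.0736 and 1.0 in the other fits, so the call rests on that setting. The 0.0736 comes from 1 limma fit of both experiments over 12541 genes. That fit takes part of its spread from the technical dye swap of the sorted cells. In whole colon, fewer cells of a type and less RNA per cell cannot be told apart.

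In the sorted cells *Ephb3* had a log2 level of 11.66 and 11.57 in Axin2+ cells and of 10.57 and 10.58 in Axin2- cells. The Axin2+ pool was higher on both arrays, by a log2 ratio of 1.1 and 0.99, on average 2.06-fold. With centring on the median in place of loess the second array turned to -0.29 and the mean was 0.93. Under that centring 21.1% of all genes kept 1 direction on both arrays, against 82.7% with loess. *Ephb3* ranked 218th of 15777 genes from the top. Among the 13554 genes measured in both experiments, 79, or 0.583%, were higher past 1.5-fold in Axin2+ cells and lower past 1.5-fold in the KO, and *Ephb3* was the member among them. No member showed the opposite, lower past 1.5-fold in Axin2+ cells and higher in the KO, which 0.435% of genes did.

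*Ephb2*, which encodes the other EphB receptor of the crypt base, gave much smaller values. In colon its brighter probe had a log2 level of 9.83 and 9.38 in controls and 9.58 and 9.94 in *Rspo3* KO, so the groups overlapped. The log2 ratio was -0.25 in the first pair and 0.56 in the second, and the adjusted limma p was 1.0, with an interval of the mean (95%) of -0.47 to 0.79. Its second probe, the one in the kinase region, gave 0.20 in both pairs but was close to background in colon, with log2 levels of 6.22 to 6.67 and 1 control channel not above it. The scanner software's own ratios gave 1.92 and 0.74 for it. In Axin2+ over Axin2- cells the first probe gave a log2 ratio of 0.16 on both arrays and the second 0.26 and 0.23. Both probes thus lay slightly higher in Axin2+ cells, within 1.5-fold. The difference between *Ephb2* and *Ephb3* was not tested.

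*Ephb4* encodes the EphB receptor best known from veins, where its ligand is ephrin-B2. Its log2 level was 8.88 and 8.78 in control colon and 8.60 and 8.65 in *Rspo3* KO. The log2 ratios of KO over control were -0.28 and -0.13, and the adjusted limma p was 1.0. In sorted cells the log2 ratio was 0.17 and 0.01 by this probe and -0.07 and -0.06 by a second probe, so the probes disagreed in direction. The second probe was in no channel of the colon arrays well above background. Of 8 endothelial markers, 8 were measured in colon, with a median log2 ratio of 0.10 and summed levels of 1858 and 2059 in controls and 2047 and 2058 in *Rspo3* KO. In sorted cells 2 of the 8 were measured, *Tek*, above background in 4 of 4 channels, and *Esam*, in 3 of 4. The markers *Pecam1*, *Cdh5*, *Kdr*, *Tie1*, *Emcn* and *Eng* were in no channel well above background.

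*Ephb6* encodes a receptor whose kinase is inactive. It had a log2 level of 7.49 and 7.33 in control colon and 7.84 and 7.58 in *Rspo3* KO. Each KO mouse lay above its own control, by a log2 ratio of 0.35 and 0.25, with an adjusted limma p of 1.0. Of all genes, 20.3% were higher in both pairs. In sorted cells it was well above background in Axin2- cells on both arrays, with log2 levels of 6.38 and 6.49, and on neither array in Axin2+ cells. *Ephb6* was 1.22-fold lower in Axin2+ cells, taking as its level there the lowest signal above background or its own, whichever was higher. That lowest signal is the lowest of any probe on the array, so the value is not a firm bound for this probe. The measured log2 ratios were -0.38 and -0.23, and those of the scanner software -2.61 and -1.51.

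Both A-type receptors are known from epithelia. *Epha2*, known for a role in cell spreading and in many carcinomas, had a log2 level of 9.42 and 8.91 in control colon and 10.41 and 9.37 in *Rspo3* KO. Each KO mouse lay above its own control, but the lower KO value lay below the higher control value. The log2 ratio was 1.0 in the first pair and 0.46 in the second, with a mean of 0.73 ± 0.38 (SD, n = 2), or 1.66-fold higher. The limma interval (95%) was 0.16 to 1.30, the unadjusted p was 0.0192 and the adjusted limma p 0.779. The second pair alone stayed under 1.5-fold, and with centring on the median in place of loess the second pair turned to -0.11. Under that centring 17.3% of all genes kept 1 direction in both pairs, against 44.1% with loess.

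In sorted cells *Epha2* had a log2 level of 9.50 and 9.60 in Axin2+ cells and of 9.40 and 9.49 in Axin2- cells. Its log2 ratio was 0.10 and 0.11, so Axin2+ and Axin2- cells differed by far less than 1.5-fold. The pattern of *Ephb3*, with opposite signs in the experiments, was thus not shared by *Epha2*.

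*Epha1* had a log2 level of 10.66 and 10.43 in control colon and of 10.56 and 11.23 in *Rspo3* KO. The groups overlapped and the pairs disagreed, with a log2 ratio of -0.11 in the first and 0.80 in the second, and the adjusted limma p was 1.0. In Axin2+ over Axin2- cells the log2 ratio was -0.43 and -0.15, lower on both arrays and within 1.5-fold. The difference between these arrays, 0.28, was the largest among the 9 members in that experiment.

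**Figure D2:**
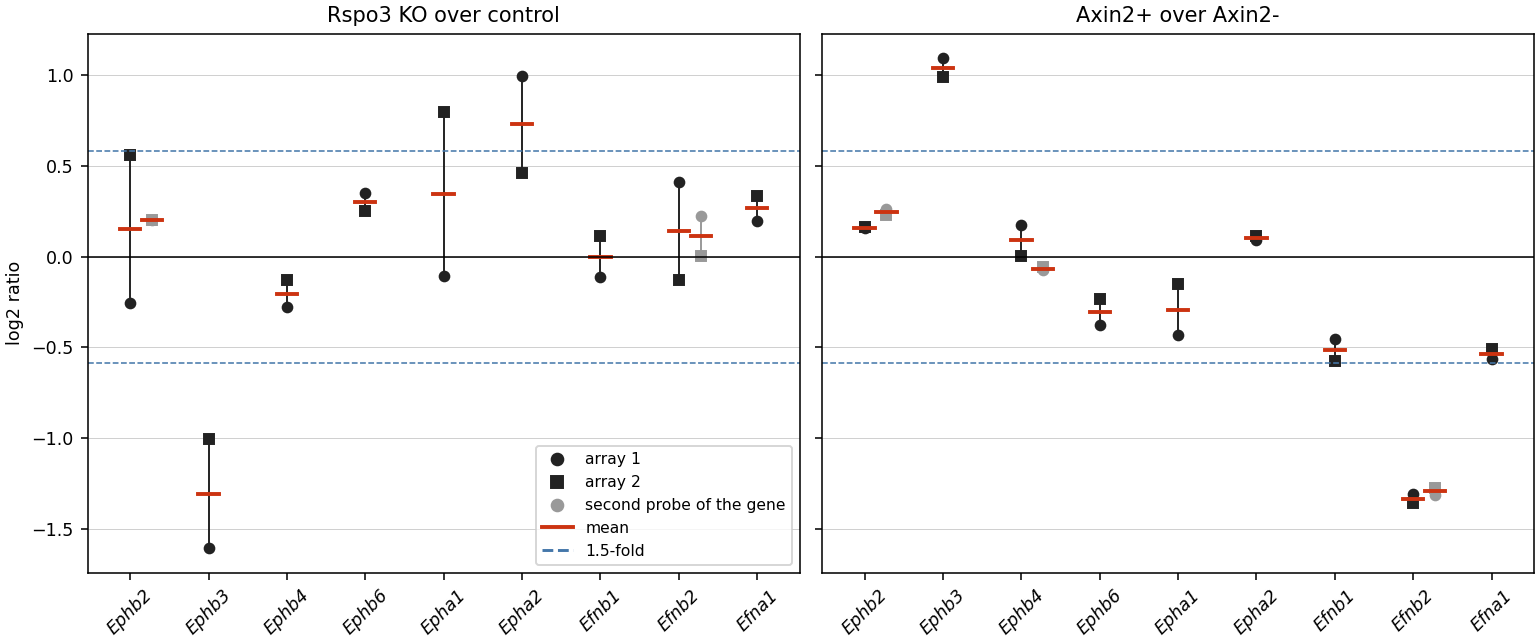
The log2 ratio of each member on each array, *Rspo3* KO over control on the left and Axin2+ over Axin2- on the right. Circles are array 1, squares array 2, red bars the mean of both, grey symbols a gene's second probe where it was measured, and dashed lines mark 1.5-fold. *Ephb3* lies at -1.31 in the KO and at 1.04 in Axin2+ cells, and both *Efnb2* probes lie at -1.34 and -1.29 in Axin2+ cells.

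Of the B-type ligands among the members, *Efnb2* was past 1.5-fold in sorted cells and *Efnb1* was not. *Efnb2* encodes ephrin-B2, a ligand of differentiated epithelial cells and of arteries. Its brighter probe had a log2 level of 7.94 and 8.07 in Axin2+ cells and of 9.25 and 9.43 in Axin2- cells. The Axin2+ pool was lower on both arrays, by a log2 ratio of -1.31 and -1.36, on average 2.52-fold. The second probe, which lies elsewhere in the transcript, gave -1.31 and -1.27, and -2.2 and -2.18 by the scanner software. The gene ranked 230th of 15777 from the bottom.

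In colon the brighter *Efnb2* probe had a log2 level of 11.60 and 11.57 in controls and of 12.01 and 11.45 in *Rspo3* KO. The pairs disagreed, with a log2 ratio of 0.41 and -0.13, an adjusted limma p of 1.0 and a limma interval of the mean (95%) of -0.43 to 0.72. The second probe gave 0.23 and 0.0019. The probes also differed in how their own level compared between the experiments. The first was brighter in colon than in any sorted pool, while the second, at 6.70 to 7.32 in colon, lay below the Axin2- pool's 8.58 and 8.87. The experiments lie on different slides, and this difference between the probes was not tested.

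*Efnb1* encodes ephrin-B1, a ligand of EphB2 and EphB3. It had a log2 level of 12.80 and 12.62 in Axin2+ cells and of 13.25 and 13.20 in Axin2- cells. The Axin2+ pool was lower on both arrays, by a log2 ratio of -0.45 and -0.58, on average 1.43-fold and so just within the 1.5-fold limit. In colon the log2 levels were 13.43 and 12.97 in controls and 13.31 and 13.08 in *Rspo3* KO. The groups overlapped fully, the log2 ratios were -0.11 and 0.11, and the limma interval of the mean (95%) was -0.54 to 0.54.

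*Efna1* encodes ephrin-A1, a ligand of EphA2 that is held to the membrane by a lipid anchor. It had a log2 level of 9.0 and 9.02 in Axin2+ cells and of 9.57 and 9.53 in Axin2- cells. The Axin2+ pool was lower by a log2 ratio of -0.56 and -0.51, on average 1.45-fold. By the scanner software's own ratios, and with a background offset of 16, *Efna1* and *Ephb6* passed 1.5-fold as well, which made 3 members lower in Axin2+ cells in place of 1. Under these settings the share of all genes that were lower past 1.5-fold was 15.4% and 9.62%, respectively, in place of 6.97%. In colon *Efna1* had log2 levels of 10.07 and 10.40 in controls and of 10.27 and 10.73 in *Rspo3* KO, with log2 ratios of 0.20 and 0.33 and an adjusted limma p of 1.0. Each KO mouse lay above its own control, and the groups overlapped.

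**Figure D3:**
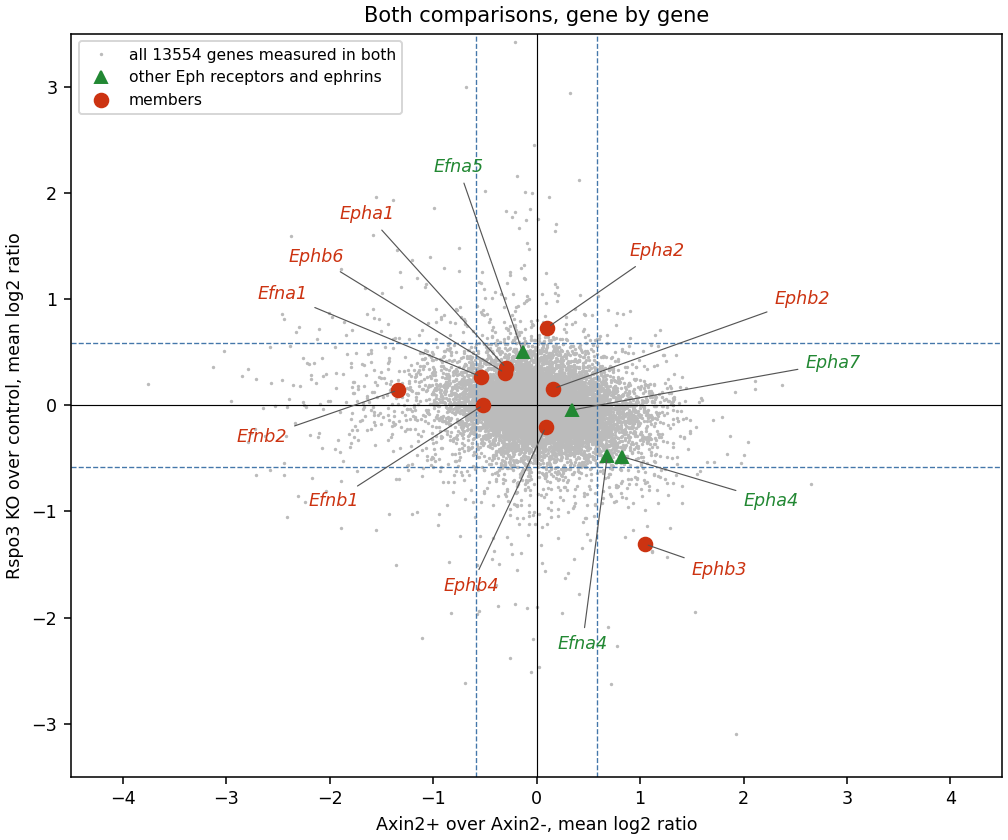
Mean log2 ratio of Axin2+ over Axin2- cells on the horizontal axis and of *Rspo3* KO over control on the vertical axis for the 13554 genes measured in both experiments (grey), the 9 members (red) and 4 other family genes (green). Dashed lines mark 1.5-fold, and 2 genes lie outside the axes. *Ephb3* is the member in the lower right, and the ligands *Efnb1*, *Efnb2* and *Efna1* lie left of 0 and within 1.5-fold of the control in the KO.

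The arrays also carry the other 13 Eph receptor and ephrin genes, of which 5 were measured in colon and 7 in sorted cells. In *Rspo3* KO over control 0 of 5 were past 1.5-fold. By limma 0 were called and 0 had an unadjusted p under 0.05. The largest differences were those of *Epha4*, with log2 ratios of -0.30 and -0.66, of the ligand *Efna4*, with -0.48 and -0.47, and of the ligand *Efna5*, with 0.51 and 0.50. *Epha7* gave -0.17 and 0.08 and *Ephb1* 0.14 and -0.11.

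In Axin2+ over Axin2- cells 2 of the 7 passed 1.5-fold, and both were higher, beside 7.84% of all genes. *Epha4*, a receptor that binds A-type and B-type ligands, gave log2 ratios of 0.79 and 0.86, and 0.51 and 0.27 by a second probe. *Efna4* gave 0.84 and 0.53. *Epha4* and *Efna4* thus had the signs of *Ephb3* in each experiment, within 1.5-fold in the KO. By its brighter probe the member *Ephb4* had these signs too. The share of all genes with these signs was not counted. The remaining 5 of the 7 were within 1.5-fold in sorted cells. Their mean log2 ratios were 0.34 for *Epha7*, 0.16 for *Efnb3*, 0.13 for *Efna3*, -0.14 for *Efna5* and -0.19 for *Epha6*. The *Efna5* value comes from another probe than in colon, since each of its probes was above background in only 1 experiment.

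The proteins that carry the signal inside the receptor cell were followed through a list of 25 genes. In *Rspo3* KO over control, 2 of 25 were lower past 1.5-fold and 1 was higher, beside 2.46% and 1.84% of all genes. By limma 0 were called and 3 had an unadjusted p under 0.05. The median log2 ratio was -0.02 beside -0.01 for all genes. Those lower were *Ngef*, an exchange factor that binds EphA receptors, with log2 ratios of -0.36 and -0.92, and *Vav2*, a guanine nucleotide exchange factor, with -0.78 and -0.48. The gene that was higher was *Kalrn*, an exchange factor for Rac, with log2 ratios of 1.05 and 1.17 and an adjusted limma p of 0.227. None of the 3 passed the test.

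In Axin2+ over Axin2- cells 3 of 24 measured genes of this list were higher past 1.5-fold and 1 was lower, beside 7.84% and 6.97% of all genes. The median log2 ratio was -0.02. *Pik3r1*, a regulatory subunit of PI3-kinase, gave log2 ratios of 0.91 and 1.23, and *Vav3*, a relative of *Vav2*, gave 1.0 and 1.12. The third, *Tiam1*, a Rac exchange factor with 0.92 and 0.75, is named after its values were seen. *Kalrn* was the gene that was lower, with -1.04 and -1.11. It was thus higher in the KO and lower in Axin2+ cells, the reverse of *Ephb3*. Of the genes measured in both experiments, 0.435% were so past 1.5-fold.

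The partners and proteases of ephrins in the ligand cell were followed through 12 genes. Of the 10 measured in colon 0 were past 1.5-fold, 0 were called by limma and 0 had an unadjusted p under 0.05, with a median log2 ratio of -0.02. In sorted cells, beside 6.97% and 7.84% of all genes, 2 of 12 were lower past 1.5-fold and 0 were higher. These were *Rhbdl2*, a rhomboid protease known to cut ephrin-B3, with log2 ratios of -0.70 and -0.80, and *Cldn4*, a tight junction protein that binds ephrin-B1, with -0.69 and -0.64. *Efnb1* and *Efnb2* were lower in the same cells. *Adam10*, a protease of ephrins that was within 1.5-fold in both experiments, gave a mean log2 ratio of 0.08 in sorted cells and 0.26 in the KO.

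**Figure D4:**
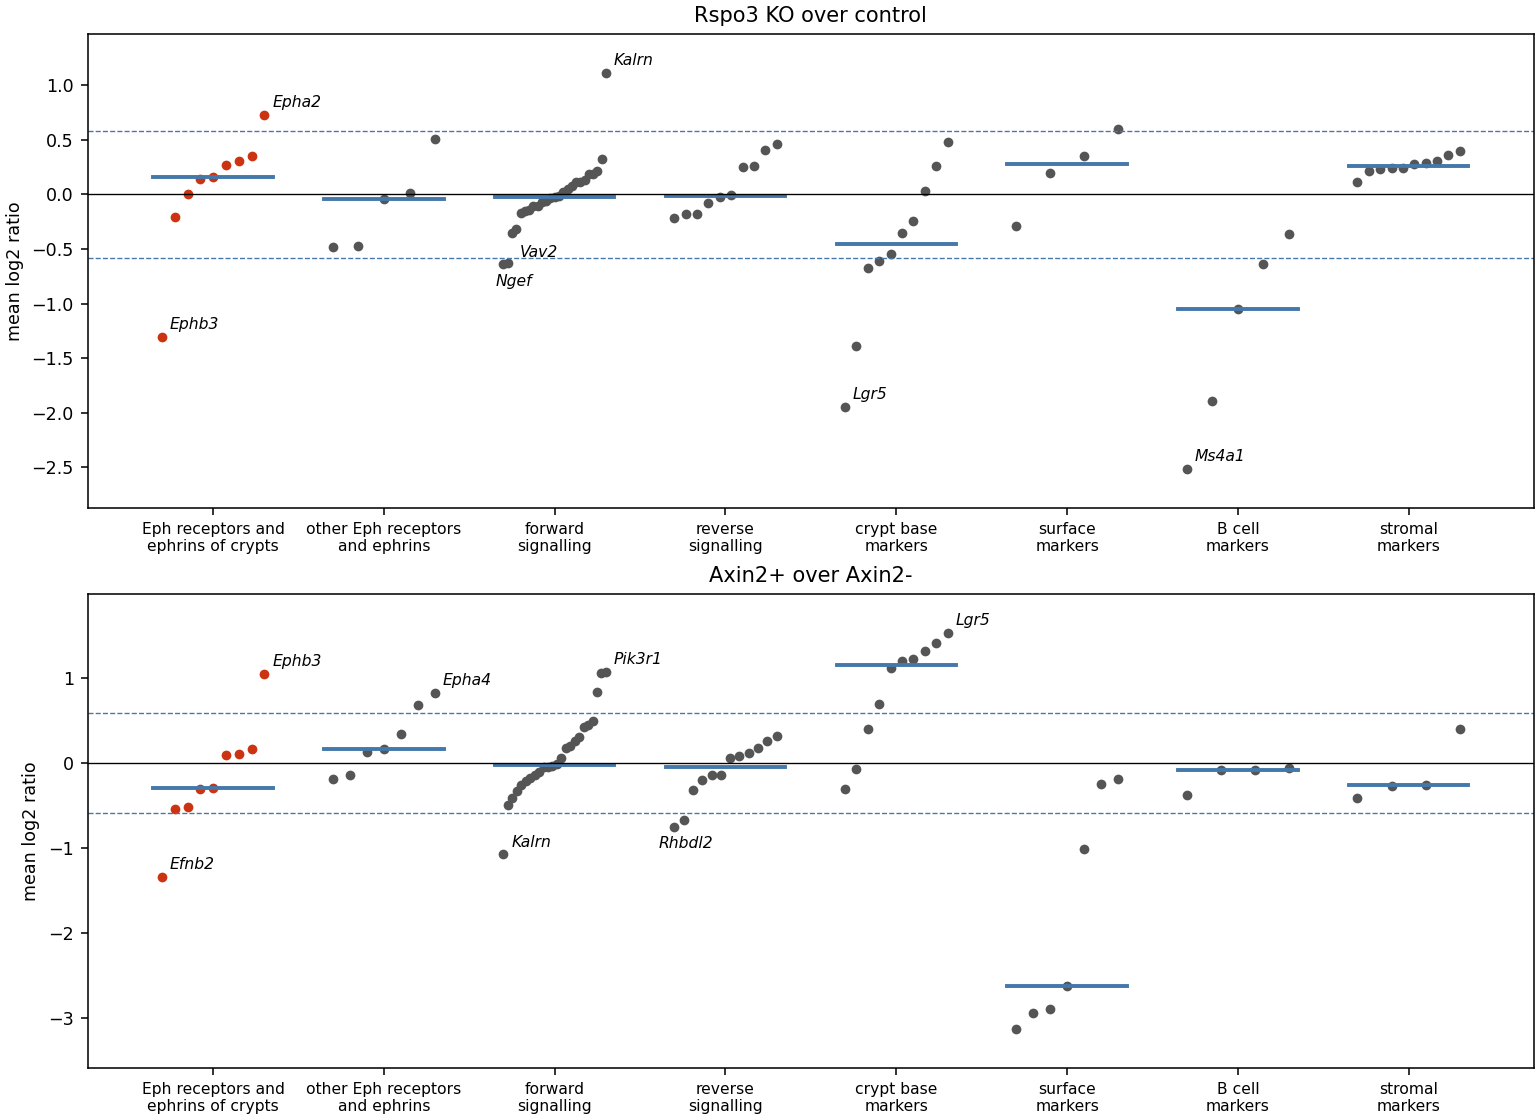
Mean log2 ratio of every measured gene (points) of 8 gene lists, ordered by value within each list, with the list's median (blue bar) and 1.5-fold (dashed), *Rspo3* KO over control above and Axin2+ over Axin2- below. The members (red) have medians of 0.16 and -0.29, and markers of the crypt base lie mostly below 0 in the KO and above 0 in Axin2+ cells.

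Known markers of position and cell type gave the following values in the same arrays. Of 10 crypt base markers, 4 were lower past 1.5-fold in the KO and 0 were higher, beside 2.46% and 1.84% of all genes. Their median log2 ratio was -0.45, with 0 called by limma. *Lgr5*, the stem cell receptor for R-spondins, gave log2 ratios of -1.28 and -2.61, with 2 of 4 channels well above background. Its adjusted p by limma was 0.109. *Axin2* gave -0.45 and -0.26, *Ascl2* -0.47 and -0.76, *Cd44* 0.48 and 0.04 and *Sox9* 0.28 and -0.23. The summed level of the 10 was 9204 and 9802 in controls and 7996 and 7402 in *Rspo3* KO. In Axin2+ over Axin2- cells 7 of the 10 were higher past 1.5-fold, beside 7.84% of all genes, and the list's median was 1.16. Among the 7 were *Lgr5* with a mean of 1.53, *Axin2* with 1.32, *Cd44* with 1.41 and *Sox9* with 0.69, while *Ascl2* gave -0.07. *Ephb3* at -1.31 and 1.04 lay on the same side as the list's median in both. Markers of the surface epithelium were lower past 1.5-fold for 5 of 7 in Axin2+ cells, beside 6.97% of all genes. *Krt20* had a mean of -2.89 and *Aqp8* of -2.94, beside -1.34 for *Efnb2*. In the KO 4 of the 7 had a ratio, and *Krt20*, *Aqp8* and *Klf4* had none, since their spots were flagged as outliers on 1 or both arrays.

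Markers of B cells were lower in the KO colon. Of 8, 5 were measured, all 5 were lower on both arrays, 4 past 1.5-fold, and 1 was called by limma, *Ms4a1*, with a mean log2 ratio of -2.51 (adjusted p = 0.0153). Their summed level was 2683 and 1601 in controls and 604 and 654 in *Rspo3* KO, while *Cd79a*, *Pax5* and *Blk* were in no colon channel well above background. Their part in the values of *Ephb3* and *Epha2* was not tested. In the sorted cells, where *Ephb3* differed 2.06-fold, the 4 measured B cell markers had a summed level of 331 to 346 in Axin2+ and 372 to 379 in Axin2- cells. Of 6 measured epithelial markers in colon, 5 went opposite ways in the pairs and 1, *Cdx2*, was called by limma as higher with a mean log2 ratio of 2.12 (adjusted p = 0.0236). Their summed level was 226746 and 229943 in controls and 237737 and 226988 in *Rspo3* KO, so the epithelial sum overlapped between the groups.

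The genes most like each member were found by the Euclidean distance over the 4 log2 ratios among 13554 genes. Nearest to *Ephb3* was *Smoc2*, itself among the 10 crypt base markers, at a distance of 0.17, with log2 ratios of -1.71 and -1.06 in the KO and 1.13 and 1.1 in Axin2+ cells. *Gm32819* followed at 0.29 and *Kif12* at 0.31. Nearest to *Efnb2* were *Glod5* at 0.12, *Lamb3* at 0.15 and *Pygl* at 0.18, and nearest to *Epha2* were *Maff* at 0.20, *Usp12* at 0.24 and *Scyl2* at 0.26. *Ephb2* was nearest to *Gtf2e1*, *Sertad4* and the array probe NAP097103-001, *Ephb4* to *Akna*, *BC019958* and *0710001D07Rik*, and *Ephb6* to *Tdrd7*, *Nipa2* and *Cdkl1*. *Epha1* was nearest to *Phlda2*, *Pmel* and *Pex2*, *Efnb1* to the array probe NAP026409-1, *Rnf31* and *Cttn*, and *Efna1* to *Chmp3*, *Mgat4a* and *Septin5*, all at distances of 0.05 to 0.21. These distances describe 4 arrays, of which the 2 of sorted cells share their RNA.

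**Figure D5:**
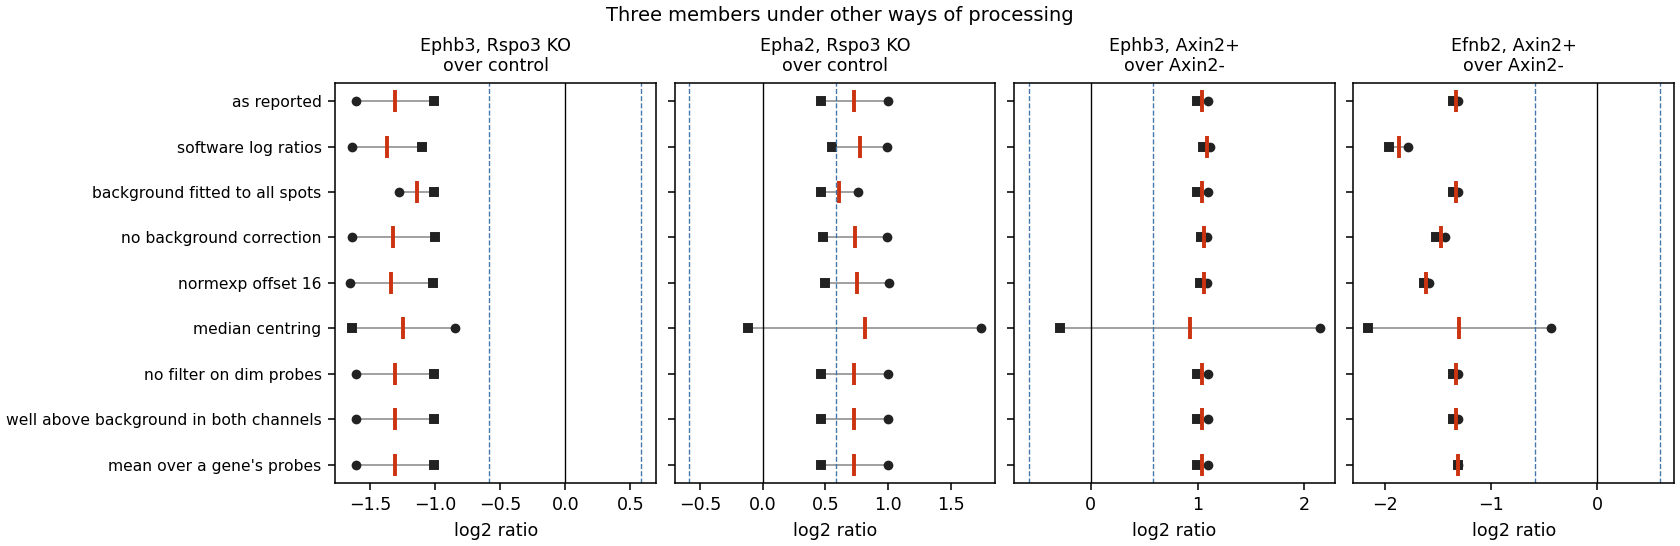
Log2 ratios of *Ephb3*, *Epha2* and *Efnb2* (horizontal axis) under 9 ways of processing (rows), with array 1 as circles, array 2 as squares, the mean as red bars and 1.5-fold dashed. All means keep their side of 0, and with median centring the arrays of *Epha2* in the KO and of *Ephb3* in sorted cells fall on opposite sides of 0. With that centring only 17.3% of all genes in the KO and 21.1% in sorted cells keep 1 direction on both arrays.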

How the data were processed

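The authors hybridised 4 dual-color arrays and extracted them with Agilent Feature Extraction. Per the file headers, the deposited files give for each spot the mean and background intensity of each dye and a log10 ratio of Cy5 over Cy3, and the deposited series table repeats that log10 ratio. Here the intensities were corrected with limma 3.58.1 in R 4.3.3 (normexp, offset 50, fitted without 66 and 6 spots of the KO arrays with an outlying background) and normalised by loess within arrays. Control spots and 124 to 467 outlier spots per array were left out. Repeat spots were averaged. All ratios are given as *Rspo3* KO over control and Axin2+ over Axin2-. A gene is its brightest probe with a ratio on both arrays, used if, on each array of the experiment, 1 channel or both exceeded background. Channel levels are log2 intensities with the mean of both dyes quantile-normalised between arrays.

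The KO ratios were tested against 0 with limma (lmFit, eBayes; threshold 0.05, Benjamini-Hochberg over all genes). The exact sign-flip permutation test of 2 pairs cannot go below p = 0.5, so limma's p-values rest on the spread limma borrows across genes. Also counted were genes whose mean passed 1.5-fold and whose arrays had 1 sign. The limma fit was run on simulated independent arrays with planted changes larger than any member's and no dye effect. That run does not cover changes of the members' size or dye effects. Names come from the array files, updated through RefSeq for 34341 of 41174 probes. The members, gene lists and motifs were chosen with earlier results of these data known. Named from the signalling lists were the 2 largest changes per direction and experiment among genes past 1.5-fold. *Tiam1* and *Adam10* were named outside this rule. Also named were all measured Eph receptors and ephrins, 7 crypt or surface markers and the 3 nearest patterns of each member. Background correction, normalisation, probe filter, probe choice, fold threshold and single arrays were varied. The labels and the study's methods differ on the colon part and RNA extraction, and do not say which tamoxifen scheme (single or repeated dose) each experiment used. Each experiment lies on 1 slide. The number of arrays limits the precision.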

Additional observations from a re-analysis of the deposited data

How the results depend on the processing

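The direction of the mean of *Ephb3* in both experiments, of *Epha2* in the KO and of *Efnb2* in sorted cells was the same under every alternative run. In the KO 1 member, *Ephb3*, was lower past 1.5-fold under each of them, with a mean log2 ratio of -1.61 to -1.01. Several of these runs could not change the values. *Ephb3* and *Epha2* have 1 probe each, so the choice of probe leaves them as they are. The sorted arrays had 0 spots with an outlying background, and the series table repeats the software's ratios. The number of genes called by limma in the KO was 34 and depended on the processing. It was 121 with an offset of 16 (59.5% of them lower, against 47.1%) and 113 with the software's ratios and with the series table of values. It was 67 without background correction and 52 with both experiments in 1 fit, whose spread is partly that of a technical dye swap. It was 7 with median centring (28.6% lower), 3 with the mean over a gene's probes and 1 with the background fitted to all spots (0 lower in both), and 0 without the filter on dim probes, where 1192 genes had an unadjusted limma p under 0.05. The count of members called by limma was 1 (*Ephb3*) with an offset of 16 and otherwise 0. The count of members higher in the KO was 0 with a 2-fold threshold and 0 with median centring. In Axin2+ cells the count of members higher was 0 with median centring, and that of members lower was 3 with an offset of 16, with the software's ratios and with the series table. With median centring 17.3% of all genes in the KO and 21.1% in sorted cells kept 1 direction on both arrays, against 44.1% and 82.7% with loess. For offset, background and median centring the cause was not tested. Of all genes, 376 were lower and 281 higher past 1.5-fold in the KO, but 877 and 585 by the software's ratios, and 186 and 171 with the background fitted to all spots. In Axin2+ cells the 1099 lower and 1237 higher became 2431 and 2695 by the software's ratios and 590 and 487 with median centring.

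Leaving out each array in turn gave 1 to 1 members in each direction of both experiments, but without the first KO array the higher member was *Epha1* in place of *Epha2*. No paired analysis was possible because each array's ratio is already taken within a pair, which leaves no block to add. Only 2 pairs of mice and 1 pair of sorted pools were measured, so a difference within 1.5-fold is not shown to be absent.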

Other observations

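Past 1.5-fold, 6.97% of all genes were lower in Axin2+ cells, while 2.46% were lower and 1.84% higher in the KO. Other cell type markers gave the following values in *Rspo3* KO over control. Of 8 T cell markers 5 were measured, with a median log2 ratio of -0.52 and 1 lower past 1.5-fold. The 8 macrophage markers had a median of 0.24 with 1 higher past 1.5-fold, the 10 stromal markers 0.26 with 0 past it, and the 6 measured neural markers 0.14 with 0 past it. In Axin2+ over Axin2- cells the medians were -0.14 over 4 T cell markers, -0.09 over 6 macrophage markers (1 lower past 1.5-fold), -0.26 over 4 stromal markers, -0.20 over 2 neural markers (1 lower past 1.5-fold) and -0.07 over 8 epithelial markers (2 lower past 1.5-fold). Surface markers in the KO had a median of 0.28 over the 4 of 7 genes with no outlier-flagged spot (*Krt20*, *Aqp8* and *Klf4* are left out), with 1 higher past 1.5-fold.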
